A study of Homo sapiens with 32 samples.

Results

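Expression of 10 genes grouped as neural-type, several but not all of them best known from neurons, was followed across 4 lines of THP-1 cells, a human monocytic leukaemia line. The genes are BEX1, SV2A, EPHB1, AQP1, NUDT10, CLSTN2, SLITRK5, MACROD2, VAT1L and CACNA2D1, and they were found by symbol among the 60107 genes in the deposited tables. They were chosen by their count differences between lines in these same libraries, as genes outside immune pathways that differed widely, so their differences between lines are given as a description without a test. Their responses to LPS, a bacterial cell wall component, were not the stated basis of the choice and were tested. Leaving out immune pathways may also leave out genes that respond to LPS, so the choice was not independent of that test. All 10 passed the filter on low values, a mean of 10 or more normalized counts, which left 12406 genes.

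The 32 libraries fall into 8 groups of 4. KO cells lack ACLY, the enzyme that cleaves citrate to acetyl-CoA. WT, HA (H760A, catalytically inactive) and SA (S455A, not phosphorylated at that serine) cells came from knockout cells given the respective ACLY by lentivirus, and it is not stated whether KO cells also received a virus. Each line was left unstimulated or given 100 ng/ml LPS for 3 h by the sample labels, while a methods paragraph gives another LPS concentration. There is 1 line per genotype and no separate cultures are named, so p-values measure the spread between these libraries and other differences between lines cannot be told apart from the genotype. In bulk RNA, fewer cells of a type and less RNA per cell cannot be told apart.

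Several of these genes encode proteins of the neuronal surface and synapse. SV2A is a glycoprotein of synaptic vesicles that takes part in transmitter release, EPHB1 is a receptor tyrosine kinase for ephrin-B ligands that guides axons, and SLITRK5 and CLSTN2 are transmembrane proteins that act in synapse formation. CACNA2D1 is the α2δ-1 auxiliary subunit of voltage-gated calcium channels. BEX1 is a small adaptor protein in neurotrophin receptor signalling, AQP1 is a water channel, NUDT10 hydrolyses diphosphoinositol polyphosphates, MACROD2 removes ADP-ribose from proteins, and VAT1L is a homologue of the vesicle amine transport protein VAT1. Neuronal genes of this kind are often kept silent outside the nervous system by the repressor REST and by DNA methylation of their promoters.

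Promoter sequence was taken from RefSeq (GRCh38.p14) as windows of 300 bases, 250 before and 50 after each start, and all 10 genes had an entry, with 14 windows in all. The windows of BEX1 and VAT1L, which were lower in KO and HA cells, and of CLSTN2 and NUDT10, which were higher, are shown because these genes separated the lines in opposite directions. Capitals mark CpG dinucleotides, the bases at which promoters are methylated. They lie at chrX:103064122-103064421 (minus strand) for BEX1, chr16:77788314-77788613 (plus strand) for VAT1L, chr3:139934935-139935234 (plus strand) for CLSTN2 and chrX:51332572-51332871 (plus strand) for the second of the NUDT10 windows.
BEX1: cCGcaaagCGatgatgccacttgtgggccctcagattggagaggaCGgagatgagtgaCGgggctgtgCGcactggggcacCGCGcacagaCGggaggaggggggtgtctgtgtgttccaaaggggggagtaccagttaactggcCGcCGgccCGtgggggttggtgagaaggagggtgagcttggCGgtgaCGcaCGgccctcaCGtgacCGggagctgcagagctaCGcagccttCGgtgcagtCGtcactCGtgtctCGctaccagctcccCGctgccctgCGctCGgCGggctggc
VAT1L: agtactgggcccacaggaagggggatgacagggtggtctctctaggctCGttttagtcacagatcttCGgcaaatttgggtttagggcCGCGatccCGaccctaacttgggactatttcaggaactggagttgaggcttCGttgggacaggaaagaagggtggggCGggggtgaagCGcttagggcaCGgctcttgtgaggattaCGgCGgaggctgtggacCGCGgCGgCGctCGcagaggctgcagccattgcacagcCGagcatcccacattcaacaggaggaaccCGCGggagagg
CLSTN2: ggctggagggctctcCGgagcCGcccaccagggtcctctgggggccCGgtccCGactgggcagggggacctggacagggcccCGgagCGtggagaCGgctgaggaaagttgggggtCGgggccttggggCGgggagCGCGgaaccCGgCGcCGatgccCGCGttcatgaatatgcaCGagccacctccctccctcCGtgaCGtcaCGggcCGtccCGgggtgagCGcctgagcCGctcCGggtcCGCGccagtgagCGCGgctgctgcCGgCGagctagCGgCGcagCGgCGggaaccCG
NUDT10: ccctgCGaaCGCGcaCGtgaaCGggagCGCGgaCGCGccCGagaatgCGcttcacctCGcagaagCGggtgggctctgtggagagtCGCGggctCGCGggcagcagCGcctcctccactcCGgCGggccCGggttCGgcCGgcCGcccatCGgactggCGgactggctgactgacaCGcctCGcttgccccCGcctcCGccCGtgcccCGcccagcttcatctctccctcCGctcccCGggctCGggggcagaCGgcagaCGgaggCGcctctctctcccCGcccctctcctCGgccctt

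These windows held 25 CpGs in BEX1, 19 in VAT1L, 36 in CLSTN2 and 40 in NUDT10, against a median of 14 over the 35116 windows in the table. The first window of NUDT10, at the start of the gene in GENCODE, held 9. Over the 14 windows of the 10 genes the number ran from 1, at the downstream start of MACROD2, to 40. SV2A had 3 CpGs in a window that starts inside its GENCODE gene. The GC box GGGCGG, searched on both strands, was in 10 of the 14 windows and in 44.95% of all windows, CCAAT was in 5 of the 14 and in 34.61%, and TATAAA was in 1, that of AQP1, and in 11.53%. The E-box CACGTG was in 2 of the 14, in BEX1 and NUDT10, and in 7.26% of all windows. The left part of the REST site, TTCAGCACC, was in 0 of the 14 windows and in 0.38% of all, and the right part, GGACAGC, in 0 and in 6.03%. These letters were searched in the windows alone.

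Between 6504099 and 14750815 reads per library fell on genes (median 10247620). Values are normalized counts on a scale shared by all libraries, in which 1 count is near 1 read. The QuantSeq 3′ kit counts each transcript once at its end, so counts do not grow with gene length. No removal of PCR copies is stated. The library SA LPS replicate 1 stood apart, with a correlation of 0.80 with the mean of the rest of its group, compared with 0.91 or more in the other libraries, and some differences of SA after LPS are given with and without it. ACLY itself had 102 ± 11.4 counts (SD, n = 4) in unstimulated WT, 88.5 ± 17.4 in KO, 96.7 ± 28.9 in HA and 143 ± 27.8 in SA, so its count did not separate KO from WT. A 3′ count does not show whether an ACLY transcript is functional or came from a construct.

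Most of the genes split the lines into WT and SA on one side and KO and HA on the other. BEX1, SV2A, EPHB1, SLITRK5 and VAT1L were lower, and NUDT10 and CLSTN2 higher, in KO and HA than in WT. MACROD2 was high in WT alone, AQP1 was lower in KO and HA after LPS with overlap in unstimulated cells, and CACNA2D1 did not separate unstimulated lines. In unstimulated cells the 4 libraries of KO did not overlap those of WT in 8 of the 10 genes, where 12% of all genes tested did not overlap. HA and WT libraries did not overlap in 8 of 10 genes (17.6% of all genes), and SA and WT libraries in 1 (4.22%). After LPS the counts were 10 for KO (13.9% of all genes), 9 for HA (13.5%) and 2 for SA (2.61%). Over both treatments, the 8 libraries of KO and of HA lay apart from the 8 of WT in 8 genes each (4.48% and 4.91% of all genes), and apart from those of SA in 5, BEX1, EPHB1, CLSTN2, SLITRK5 and VAT1L (2.53% and 2.38%). KO, HA and SA are compared with the same WT libraries, and since the genes were picked for these differences the shares are printed for scale only.

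**Figure D1:**
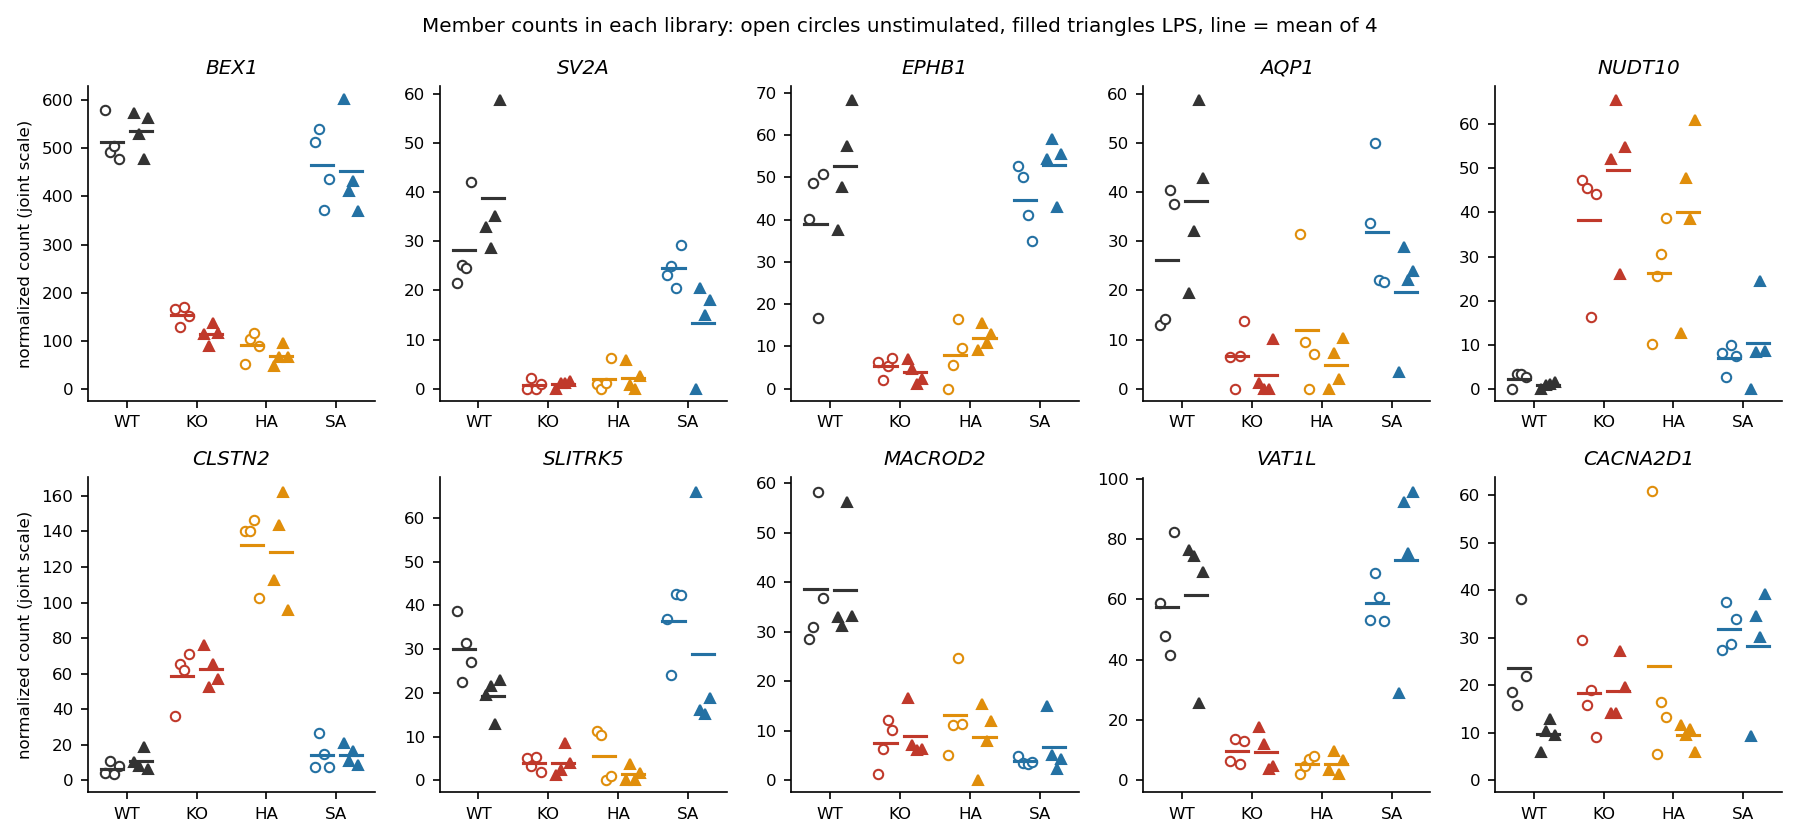
Normalized counts on the shared scale (y axis, linear, a separate range for each gene) in every library of WT, KO, HA and SA cells. Open circles are unstimulated and filled triangles LPS-stimulated libraries, and lines are means of 4. BEX1, SV2A, EPHB1, SLITRK5 and VAT1L lie low in KO and HA, NUDT10 and CLSTN2 lie high there, and MACROD2 is high in WT alone.

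Among genes of the synapse and cell surface, SV2A (ENSG00000159164, chromosome 1 of GRCh38 from 149903318 to 149917844, minus strand) was near 0 in KO and HA cells. SV2A counts in unstimulated libraries were 21.5, 25.1, 24.6 and 42.01 in WT and 0, 2.12, 0 and 0.92 in KO. SV2A in the other unstimulated lines had 1.02, 0, 1.18 and 6.17 in HA and 23.1, 25.00, 20.6 and 29.2 in SA. Every KO and HA library was below every WT and SA library. After LPS, SV2A counts were 32.9, 28.6, 35.2 and 58.6 in WT and 0, 1.19, 1.24 and 1.57 in KO. SV2A counts after LPS were 5.80, 0.736, 0 and 2.57 in HA and 0, 20.6, 15.1 and 17.96 in SA. WT lay above the other lines here, and the value of 0 in SA is replicate 1. Over the 4 libraries 3 reads were counted in unstimulated KO and 115 in WT, a depth-corrected ratio of 0.0289. After LPS 4 and 159 reads were counted, a ratio of 0.0263. The ratio of HA to WT was 0.0729 without and 0.0507 with LPS. Without replicate 1, SA after LPS had 17.9 ± 2.73 counts (SD, n = 3), below all 4 WT libraries.

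EPHB1 (ENSG00000154928, chromosome 3 from 134795260 to 135260467, plus strand) was lower in KO and HA, by a narrow margin for 1 pair of unstimulated libraries. EPHB1 counts in unstimulated libraries were 40.1, 48.6, 16.8 and 50.8 in WT and 6.41, 2.12, 5.41 and 7.36 in KO. EPHB1 in the other unstimulated lines had 0, 5.59, 16.5 and 9.70 in HA and 52.5, 49.99, 41.1 and 34.9 in SA. The highest HA library lay just under the lowest WT library, and KO and HA overlapped. After LPS, EPHB1 counts were 37.4, 47.7, 57.5 and 68.2 in WT and 7.12, 4.76, 1.24 and 2.35 in KO. EPHB1 counts after LPS were 9.28, 15.5, 10.9 and 12.9 in HA and 54.4, 59.1, 42.96 and 55.6 in SA. After LPS every KO library was also below every HA library, with means of 3.87 ± 2.62 and 12.1 ± 2.66 (SD, n = 4). On the log2(normalized count + 1) scale EPHB1 differed from WT by -2.64 in KO and -2.64 in HA without LPS and by -3.60 and -2.02 with LPS (standard error 0.56 each).

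SLITRK5 (ENSG00000165300, chromosome 13 from 87671371 to 87696272, plus strand) followed the same split at low counts. SLITRK5 counts in unstimulated libraries were 38.6, 22.6, 31.4 and 27.1 in WT and 5.13, 3.18, 5.41 and 1.84 in KO. SLITRK5 in the other unstimulated lines had 11.2, 10.4, 0 and 0.882 in HA and 36.9, 24.1, 42.7 and 42.4 in SA. All KO and HA libraries were below all WT and SA libraries. After LPS, SLITRK5 counts were 19.4, 21.7, 12.9 and 22.98 in WT and 1.19, 2.38, 8.65 and 3.92 in KO. SLITRK5 counts after LPS were 0, 3.68, 0 and 1.71 in HA and 65.99, 16.1, 15.1 and 18.8 in SA. The separation from WT held after LPS, and SA LPS replicate 1 was far above the rest of its group, which had 16.6 ± 1.93 without it (SD, n = 3). The difference from WT was -2.71 in KO and -2.92 in HA without LPS and -2.20 and -3.39 with LPS (log2 scale, standard error 0.66).

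CLSTN2 (ENSG00000158258, chromosome 3 from 139935185 to 140577397, plus strand) went the other way and also separated HA from KO. CLSTN2 counts in unstimulated libraries were 4.29, 10.9, 3.36 and 7.88 in WT and 35.9, 65.6, 62.2 and 70.8 in KO. CLSTN2 in the other unstimulated lines had 140.3, 140.5, 146 and 102 in HA and 7.51, 26.8, 14.8 and 7.54 in SA. HA lay above KO, and KO above WT and SA, with no overlap between these steps. After LPS, CLSTN2 counts were 10.5, 7.80, 18.8 and 6.34 in WT and 75.9, 52.3, 65.5 and 57.2 in KO. CLSTN2 counts after LPS were 112, 144, 162 and 96.01 in HA and 20.8, 10.9, 16.3 and 8.55 in SA. The same order held after LPS, so that over both treatments the 8 HA libraries were above the 8 KO libraries, as is true of 0.451% of all genes in either direction. Mean counts in HA were 2.26 times those in KO without LPS and 2.05 times with LPS. Relative to WT, CLSTN2 was higher by 3.04 in KO and 4.23 in HA without LPS and by 2.52 and 3.53 with LPS (log2 scale, standard error 0.38). WT and SA overlapped, with means of 6.60 ± 3.45 and 14.2 ± 9.09 in unstimulated cells.

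CACNA2D1 (ENSG00000153956, chromosome 7 from 81946444 to 82443956, minus strand) did not behave as a gene that marks the lines. CACNA2D1 counts in unstimulated libraries were 18.6, 15.9, 38.1 and 21.9 in WT and 29.5, 15.9, 18.9 and 9.20 in KO. CACNA2D1 in the other unstimulated lines had 61.00, 5.59, 16.5 and 13.2 in HA and 27.5, 37.5, 28.8 and 33.95 in SA. The lines overlapped, and HA replicate 1 alone was far above its group. After LPS, CACNA2D1 counts were 5.99, 10.4, 12.9 and 9.51 in WT and 14.2, 14.3, 27.2 and 19.6 in KO. CACNA2D1 counts after LPS were 11.6, 9.57, 10.9 and 6 in HA and 9.26, 34.7, 30.2 and 39.3 in SA. Every KO library was then above every WT library, and so was every SA library other than replicate 1, without which SA had 34.7 ± 4.57 counts (SD, n = 3) against 9.70 ± 2.86 in WT (n = 4). The 4 WT libraries after LPS were below the 4 unstimulated WT libraries.

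AQP1 (ENSG00000240583, chromosome 7 from 30911853 to 30925517, plus strand), the water channel, was the most scattered of the lower genes. AQP1 counts in unstimulated libraries were 12.9, 14.2, 40.3 and 37.6 in WT and 6.41, 0, 6.76 and 13.8 in KO. AQP1 in the other unstimulated lines had 31.5, 9.58, 0 and 7.05 in HA and 33.8, 49.99, 22.2 and 21.7 in SA. In these libraries KO and HA both overlapped WT, HA through replicate 1. After LPS, AQP1 counts were 19.4, 32.1, 58.6 and 42.8 in WT and 1.19, 0, 0 and 10.2 in KO. AQP1 counts after LPS were 0, 7.36, 1.98 and 10.3 in HA and 3.47, 28.9, 22.1 and 23.9 in SA. After LPS the KO and HA libraries were all below the WT libraries, at differences of -4.04 and -3.15 (log2 scale, standard error 0.94). SA after LPS differed from WT by -1.13, or by -0.50 without SA LPS replicate 1, whose count was the 3.47. A second protein-coding gene (ENSG00000250424) overlaps AQP1 on the same strand, and how reads in the shared part were counted is not stated.

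Of the genes that act inside the cell, BEX1 (ENSG00000133169, chromosome X from 103062651 to 103064171, minus strand) had the most reads of the set, 306 or more in every group. BEX1 counts in unstimulated libraries were 579.7, 493, 504 and 478 in WT and 165, 129, 170.3 and 152 in KO. BEX1 in the other unstimulated lines had 51.9, 105, 116 and 89.9 in HA and 514, 540.1, 372 and 436 in SA. All KO and HA libraries lay below all WT and SA libraries, and HA lay below KO. After LPS, BEX1 counts were 573, 529, 477 and 563 in WT and 115, 89.2, 137 and 116 in KO. BEX1 counts after LPS were 47.6, 66.98, 95.1 and 66.9 in HA and 602, 411, 432 and 370.2 in SA. The split from WT and SA was the same after LPS, while KO and HA then overlapped. BEX1 in WT was 3.33 times the KO level and 5.68 times the HA level without LPS, and 4.68 and 7.75 times with LPS. SA and WT overlapped at 465 ± 76.7 and 514 ± 45.3 (SD, n = 4) without LPS. Without replicate 1 the SA libraries after LPS had 404 ± 31.4 counts (n = 3), all below the WT libraries at 536 ± 43.4.

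VAT1L (ENSG00000171724, chromosome 16 from 77788564 to 77980107, plus strand) had the same split as BEX1. VAT1L counts in unstimulated libraries were 58.7, 47.7, 41.4 and 82.3 in WT and 6.41, 13.8, 5.41 and 12.9 in KO. VAT1L in the other unstimulated lines had 2.03, 4.79, 7.08 and 7.93 in HA and 53.2, 68.7, 60.8 and 52.8 in SA. KO and HA lay below WT and SA with no overlap. After LPS, VAT1L counts were 76.3, 74.6, 25.8 and 68.9 in WT and 17.8, 11.9, 3.71 and 4.70 in KO. VAT1L counts after LPS were 3.48, 9.57, 1.98 and 6.86 in HA and 28.9, 92.5, 75.5 and 95.8 in SA. The gap held after LPS, where WT replicate 3 and SA replicate 1 were each low for their group. VAT1L differed from WT by -2.51 in KO and -3.25 in HA without LPS and by -2.68 and -3.32 with LPS (log2 scale, standard error 0.49), and by 0.07 and 0.23 in SA, the latter 0.62 without SA LPS replicate 1.

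NUDT10 (ENSG00000122824, chromosome X from 51332231 to 51337525, plus strand) was near 0 in WT and present in KO and HA. NUDT10 counts in unstimulated libraries were 0, 3.35, 3.36 and 2.62 in WT and 47.4, 45.5, 16.2 and 44.2 in KO. NUDT10 in the other unstimulated lines had 10.2, 25.6, 30.7 and 38.8 in HA and 8.13, 2.68, 9.86 and 7.54 in SA. KO and HA were above WT in every library, and SA lay between and overlapped WT. After LPS, NUDT10 counts were 0, 0.867, 1.17 and 1.58 in WT and 52.2, 65.4, 25.9 and 54.8 in KO. NUDT10 counts after LPS were 12.8, 47.8, 38.6 and 60.9 in HA and 0, 8.35, 24.4 and 8.55 in SA. The separation of KO and HA from WT held, and SA overlapped both WT, at replicate 1, and HA. WT held 10 reads over 4 libraries without LPS and 4 with LPS. The depth-corrected ratio of KO to WT was 15.5 without LPS and 49.6 with LPS, and rests on these few WT reads. Without replicate 1, SA after LPS had 13.8 ± 9.20 counts (n = 3), above all WT libraries.

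MACROD2 (ENSG00000172264, chromosome 20 from 13995369 to 16053197, plus strand) was high in WT alone. MACROD2 counts in unstimulated libraries were 28.6, 30.98, 58.2 and 36.8 in WT and 1.28, 6.35, 12.2 and 10.1 in KO. MACROD2 in the other unstimulated lines had 5.08, 11.2, 24.8 and 11.5 in HA and 5.005, 3.57, 3.29 and 3.77 in SA. Every library of KO, HA and SA was below every WT library. After LPS, MACROD2 counts were 32.9, 31.2, 56.3 and 33.3 in WT and 16.6, 7.14, 6.18 and 6.26 in KO. MACROD2 counts after LPS were 0, 15.5, 7.92 and 12.00 in HA and 15.1, 5.14, 2.32 and 4.28 in SA. The same was true after LPS. Without SA LPS replicate 1 the difference of SA from WT after LPS was -3.01, and the other 3 libraries of SA had a mean of 3.91 counts. MACROD2 was the gene that separated SA from WT over both treatments, with 2.32 to 15.1 counts in the 8 SA libraries and 28.6 to 58.2 in the 8 WT libraries, a separation found in 0.0484% of all genes. SA differed from WT by -2.97 without and -2.57 with LPS (log2 scale, standard error 0.66). The gene is 2057.8 kb long and other genes lie within it, among them FLRT3 on the opposite strand.

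**Figure D2:**
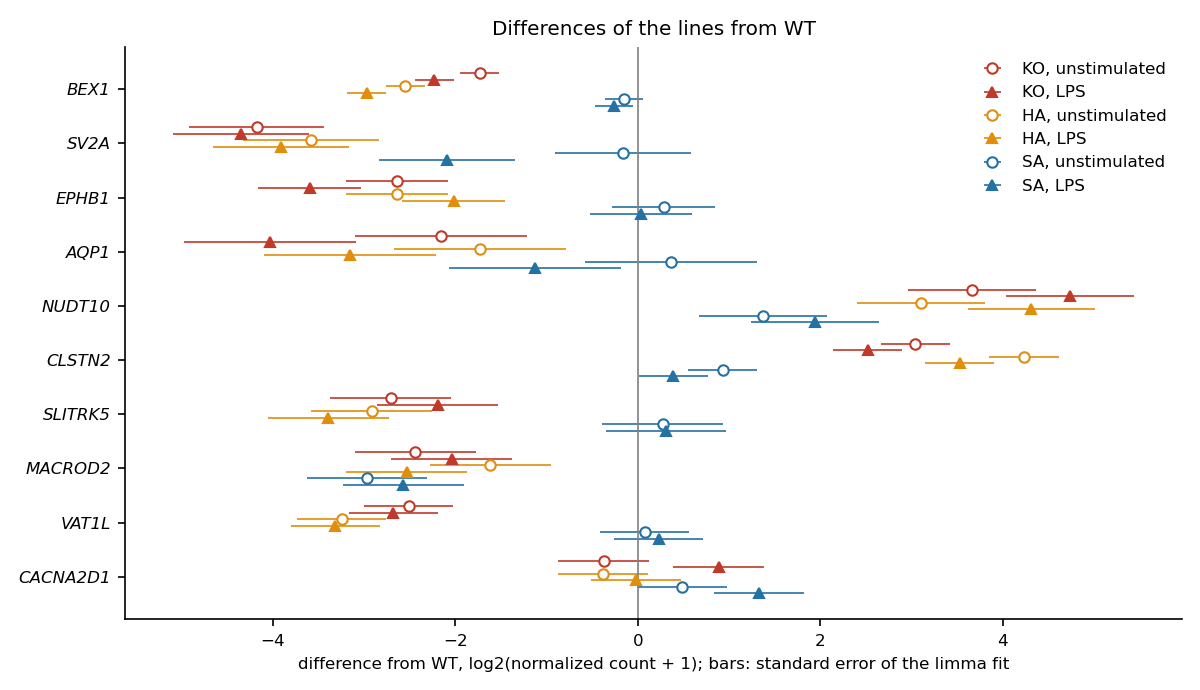
Difference of KO, HA and SA from WT (x axis, log2(normalized count + 1)) for each gene (y axis), without LPS (open circles) and with LPS (filled triangles). Bars are standard errors of the limma fit. KO and HA lie on the same side of 0 in 9 of the genes, CACNA2D1 being the exception, while SA ranges from -2.97 for MACROD2 to 1.94 for NUDT10.

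KO and HA libraries overlapped each other in most of these genes. The libraries did not overlap in 2 of 10 genes without LPS, BEX1 and CLSTN2, and in 3 with LPS, EPHB1, CLSTN2 and CACNA2D1, where 4.98% and 5.09% of all genes did not. KO and SA did not overlap in 8 genes without LPS (10.9% of all genes) and 6 with LPS (8.85%), and HA and SA in 8 (11.1%) and 5 (10.7%). Leaving out SA LPS replicate 1, KO and SA after LPS did not overlap in 10 of 10 genes (18.8% of all genes for these 4 and 3 libraries), HA and SA in 8 (30.8%), and SA and WT in 5 (6.86%), which were BEX1, SV2A and MACROD2, lower in SA, and NUDT10 and CACNA2D1, higher in SA.

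None of the 10 genes passed the test for an LPS response in any line. With limma and Benjamini-Hochberg adjustment over 12406 genes at a limit of 0.01, 0 of 10 were called in WT, KO, HA and SA, where 0.25%, 0.58%, 0.403% and 0.492% of all genes were called. The filter used the mean over all libraries, so genes near 0 in a line were tested there with little chance of a call. In WT 9 of the 10 reached a mean of 10 or more in unstimulated or LPS libraries (not NUDT10). In KO 4 did (BEX1, NUDT10, CLSTN2 and CACNA2D1), in HA 7 (not SV2A, SLITRK5 and VAT1L) and in SA 9 (not MACROD2). For the others the count of 0 says little. With so small a share of all genes called, 0 of 10 is near that share and sets none of the 10 apart. Before adjustment, 1 of 10 had a p below 0.05 in WT and 1 in KO, and 0 in HA and SA, compared with 1.61%, 5.42%, 4.76% and 9.85% of all genes. The median log2 difference over the 10 genes was 0.04 in WT, -0.005 in KO, -0.21 in HA and -0.08 in SA, and over all genes -0.006, 0.016, 0.003 and -0.020.

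The 2 genes with a p below 0.05 before adjustment were CACNA2D1 in WT and BEX1 in KO. CACNA2D1 went from 23.6 ± 9.95 to 9.70 ± 2.86 counts (SD, n = 4), a log2 difference of -1.17 (standard error 0.49, limma adjusted p = 1.00), with all LPS libraries below all unstimulated ones, as in 2.6% of all genes. BEX1 in KO went from 154 ± 18.4 to 114 ± 19.6, a difference of -0.44 (standard error 0.21, limma adjusted p = 0.914), with overlap. In SA, the SV2A counts after LPS did not overlap those without LPS, as in 4.18% of all genes, with a difference of -1.49 (standard error 0.74, limma adjusted p = 0.516), or -0.43 without SA LPS replicate 1. Standard errors of these differences ran from 0.21 for BEX1 to 0.94 for AQP1.

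**Figure D3:**
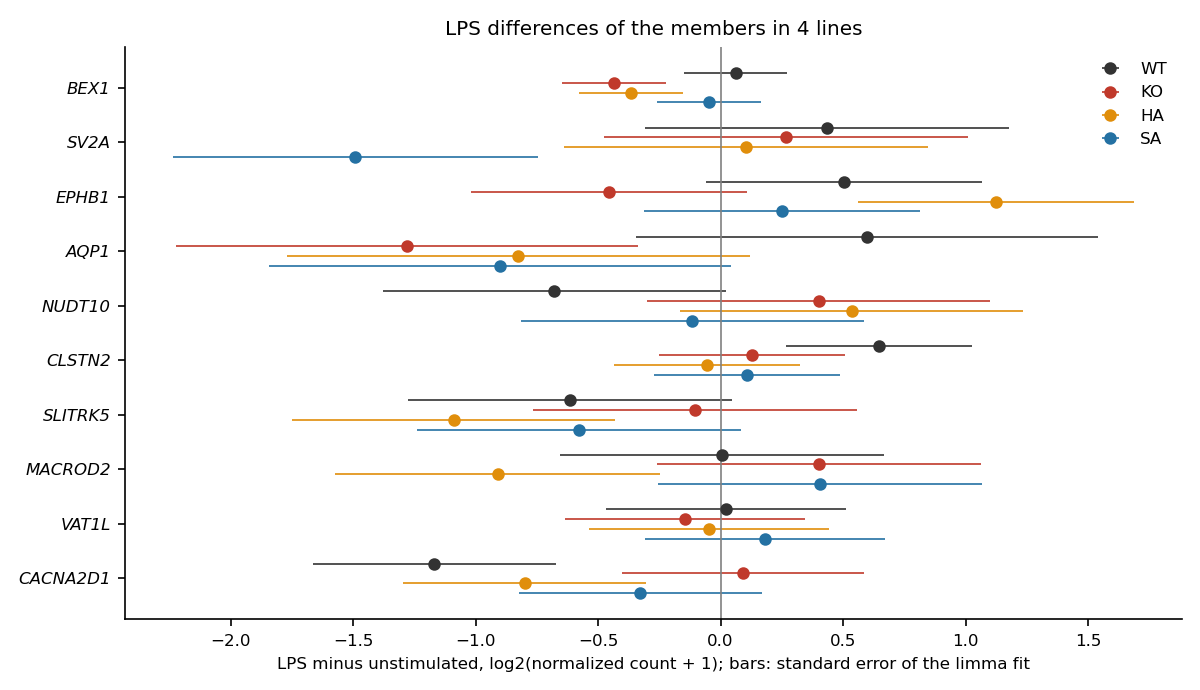
Difference between LPS-stimulated and unstimulated cells (x axis, log2(normalized count + 1)) for each gene (y axis) in the 4 lines. Points are means of 4 against 4 libraries and bars are standard errors of the limma fit. The differences lie between -1.49 and 1.12, on both sides of 0, and 0 passed the test.

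The size of the LPS response was also compared between each line and WT. Of the 10 genes, 0 were called for KO (0.00806% of all genes), 0 for HA (0% of all genes) and 0 for SA (0%) by the interaction contrast in limma, and 0 of 10 had a p below 0.05 before adjustment in each of these contrasts (1.41%, 1.14% and 3.68% of all genes). Only 3 of the 10 reached a mean of 10 or more in both WT and KO, 6 in both WT and HA and 8 in both WT and SA. A different response could hardly be seen in the rest. These contrasts called 1, 0 and 0 of 12406 genes, so 0 of 10 sets none of the 10 apart. The smallest unadjusted p was 0.0828 for KO, 0.167 for HA and 0.0773 for SA, the last being SV2A, for which it was 0.298 without SA LPS replicate 1. For CACNA2D1 the KO response exceeded the WT response by 1.26 on the log2 scale.

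The families and pathways of these genes were examined through 13 lists with 151 further genes, of which 66 were tested. In unstimulated cells 4 of the 66 were called between KO and WT, 2 higher and 2 lower (6.06%, compared with 2.9% of all genes), 2 between HA and WT, both lower (3.03%, 2.52%), and 0 between SA and WT (0%). After LPS 3 were called in KO, all lower (4.55%, 3.47%), 3 in HA, all lower (4.55%, 2.02%), and 0 in SA (0%). For SA, the same fit called 0 of all genes at both treatments, with 3.59% without LPS and 5.21% with LPS at an unadjusted p below 0.05. The median log2 difference of the 66 genes lay between -0.165 and -0.009 over the 6 comparisons and that of all genes between -0.033 and -0.009. The replicate numbers pair the KO and WT libraries, and with the number as a block in a fit of these groups alone 10 genes were called in KO without LPS and 11 with LPS. The block took the HA calls to 0 at both treatments, where the numbers do not pair the libraries. Leaving out 1 library gave 1 to 4 calls for KO and 1 to 2 for HA without LPS, and 0 to 3 and 0 to 2 with LPS. With each pair of groups fitted alone and without the block, 1 was called in each of the KO and HA comparisons. The share of all genes called was not computed for these other fits, so their counts cannot be read against the shares above.

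Of the related genes tested, those called in more than 1 comparison were all in the BEX and TCEAL family on the X chromosome. KO and HA were compared with the same WT libraries, so repeated calls of a gene are not independent. The family holds small proteins related to transcription elongation factor A. Of 8 further members tested, BEX3, an adaptor that binds the p75 neurotrophin receptor, and TCEAL9 were called lower in KO and HA with and without LPS, and the other 6 were not called. Some of these calls were lost under alternatives. Of 18 other settings or left-out libraries, BEX3 lost its call in 4 for KO and 1 for HA without LPS and in 8 and 11 with LPS, and TCEAL9 in 4 and 10 without and 6 and 10 with LPS. BEX3 had 2212 counts in unstimulated WT, 754 in KO, 642 in HA and 1963 in SA. Its log2 differences from WT were -1.65 in KO (limma adjusted p = 0.00323), -1.84 in HA (limma adjusted p = 0.00145) and -0.19 in SA (limma adjusted p = 0.998), with a standard error of 0.35. After LPS the differences of BEX3 were -1.51, -1.52 and -0.32 (limma adjusted p = 0.0066, 0.00967 and 0.871). TCEAL9 had 366 counts in unstimulated WT, 199 in KO, 203 in HA and 341 in SA, differences of -0.89, -0.85 and -0.10 (standard error 0.19, limma adjusted p = 0.00261, 0.00514 and 0.998). After LPS the TCEAL9 differences were -0.83, -0.82 and -0.10 (limma adjusted p = 0.00445, 0.00796 and 0.916). BEX2, the nearest relative of BEX1, whose transcript matches the last 500 bases of BEX1 at 89.1% of 505 aligned positions, had 0 reads in all 32 libraries.

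**Figure D4:**
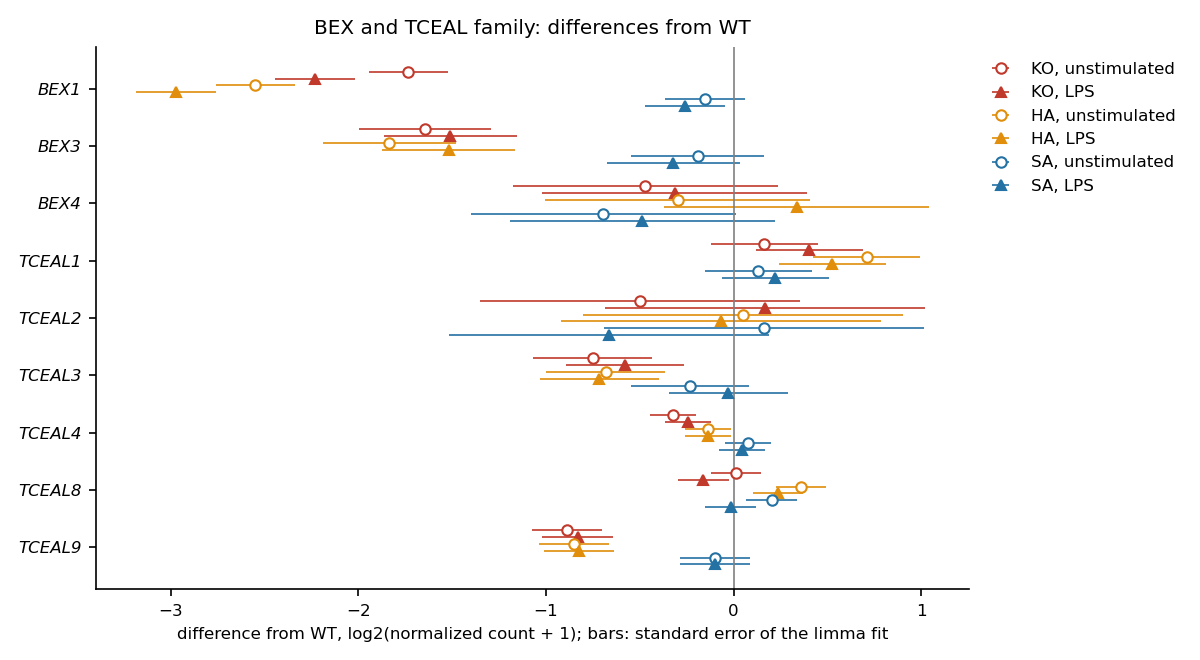
Difference of KO, HA and SA from WT (x axis, log2(normalized count + 1)) for the 9 BEX and TCEAL genes tested (y axis), without LPS (open circles) and with LPS (filled triangles), with standard errors of the limma fit. BEX1, BEX3, TCEAL3, TCEAL4 and TCEAL9 lie below 0 in KO and HA at both treatments, and of the further genes BEX3 and TCEAL9 were called. BEX1 is one of the chosen genes and is shown for comparison.

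Among 9 further Eph receptors and ephrins tested, EPHB2, a receptor of the same class as EPHB1, was called higher in unstimulated KO, at 31.8 counts against 1.54 in WT, a difference of 3.92 that depends on the pseudocount (standard error 0.77, limma adjusted p = 0.00117). After LPS it had 24.5 counts in KO and 4.30 in WT (limma adjusted p = 0.0383). EPHB3 was called lower in HA after LPS, with a difference of -1.70 (standard error 0.38, limma adjusted p = 0.00715), and EPHB4 was not called in any of the 6 comparisons. Of 5 further macrodomain ADP-ribosylhydrolases tested, ADPRS, which removes ADP-ribose from serine, was called higher in unstimulated KO, with a difference of 0.70 (standard error 0.16, limma adjusted p = 0.00631), and MACROD1 was not called. CTDSP1, a phosphatase that works with REST, was the only one of 14 genes of REST and its corepressors to be called, lower in KO after LPS with a difference of -0.78 (standard error 0.16, limma adjusted p = 0.00181). REST itself had 1418 counts in unstimulated WT, 1522 in KO, 1812 in HA and 1692 in SA and was not called. Under other settings or left-out libraries, EPHB2 lost its call in 0 of 17 and EPHB3 in 11 of 17. ADPRS lost its call in 8 of 18 and CTDSP1 in 4 of 18.

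The other close relatives were not called in any of the 6 comparisons or had too few reads. NUDT11, the neighbour of NUDT10, had 22.4 counts in unstimulated WT and 70.5 in KO (difference 1.75, standard error 0.90, limma adjusted p = 0.393). CACNA2D3, another α2δ subunit, had 58.7 counts in unstimulated WT, 15.9 in KO and 9.94 in HA (differences -2.17 and -2.79, limma adjusted p = 0.215 and 0.0555). CLSTN1, VAT1, SLITRK4, CACNA2D4 and AQP3 were tested and not called, while CLSTN3, CACNA2D2, SV2B, SV2C and AQP9 were below the filter, the last 4 with at most 6 reads in any library. Of the lists, 0 of 8 further genes of synaptic vesicles and release, with SYPL1 and NSF as the most abundant, and 0 of 7 further calcium channel subunits, led by CACNA1A and CACNA2D4, were called in any comparison. The same count of 0 held for 1 further aquaporin, 3 further diphosphoinositol polyphosphate phosphohydrolases, 1 calsyntenin, 2 adhesion proteins of the SLITRK, LRRTM and FLRT list and 1 VAT1 gene. Over all genes 5.3% were called in any of the 6 comparisons, so 0 in lists this short sets none of them apart.

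General neuron markers were mostly at few reads in all lines. Of 20 such genes 8 had at most 3 reads in any library, and NEFL, STMN2, DCX, GAP43 and CHGA had 0 reads in all libraries. The 3 tested were NEFH, ELAVL4 and INA, and 0 were called, although all 3 lay below WT in KO and HA at both treatments. ELAVL4 had 22.1 counts in unstimulated WT, 3.95 in KO, 5.39 in HA and 14.7 in SA. For ELAVL4, unstimulated KO and HA lay at -2.26 and -2.19 from WT on the log2 scale, short of the limit (limma adjusted p = 0.0517 and 0.0480). With LPS these ELAVL4 values were -2.48 and -0.695 (limma adjusted p = 0.0225 and 0.653). The summed level of the 20 genes, most of it NEFH, was 334 to 480.5 in unstimulated WT, 217 to 372 in KO, 242 to 379 in HA and 371 to 463 in SA, and the part of such levels in the results was not tested. Of 10 glia markers 4 were tested, MBP, OLIG1, OLIG2 and SLC1A3, with 0 called, and GFAP, MOG and SOX10 had 0 reads. Over all genes 5.3% were called in any of the 6 comparisons, so 0 among so few tested markers says little. Monocyte markers were all tested, 14 of 14, with summed levels of 21020 to 24580 in unstimulated WT, 31200 to 46310 in KO, 29180 to 37480 in HA and 20440 to 22040 in SA. Their leading gene LYZ, lysozyme, was called higher in KO (1.89, limma adjusted p = 0.000425) and HA (1.62, limma adjusted p = 0.0032) without LPS, and most of the rise of the sum was LYZ, whose mean count was 18560 in KO and 14950 in HA against 4851 in WT. The median log2 difference over the 14 markers was 0.293 in KO and 0.112 in HA, with CEBPA, CD33 and ITGAM below 0 in both, and the part of LYZ in the results was not tested. CD14 was called higher in unstimulated KO (1.66, limma adjusted p = 6.54e-05) and lower in HA after LPS (-1.37, limma adjusted p = 0.00113). After LPS, LYZ was called higher in KO and HA, CD33 lower in KO and ITGAM lower in HA, and FCER1G was called higher in unstimulated KO. Of 10 lymphoid markers 2 were tested, with 0 called, and of 12 erythroid and 12 epithelial and fibroblast markers 0 passed the filter. The summed level of the latter without LPS was 25.8 to 46.1 in WT and 13.8 to 34.8 in SA, against 9.20 to 21.8 for KO and 4.72 to 16.3 for HA. In WT most of it was DCN, decorin, picked out after its values were seen, with means of 20.7 in WT, 1.76 in KO, 0.441 in HA and 8.77 in SA, and the part of these markers in the results was not tested.

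Genes that lie next to the 10 genes were examined to see whether whole stretches of chromosome differed. The 2 nearest tested genes on each side gave 40 neighbours at gaps of 2.5 to 7330.2 kb (median 340.5). Of these, 3 were called in any of the 6 line comparisons (7.5%, compared with 5.3% of all genes). PCLO, a scaffold protein of the presynaptic active zone that lies 310.1 kb from CACNA2D1, had 64.3 counts in unstimulated WT, 196 in KO, 160.1 in HA and 89.7 in SA. These are differences of 1.67 in KO, 1.36 in HA and 0.49 in SA (standard error 0.30, limma adjusted p = 0.000387, 0.00444 and 0.998). After LPS PCLO differed by 1.42 in KO and 1.30 in HA (limma adjusted p = 0.00204 and 0.00802). Of 18 other settings or left-out libraries, PCLO lost its call in 1 for KO and 6 for HA without LPS and in 5 and 11 with LPS. SEMA3A, a secreted axon guidance protein further out on the same side of CACNA2D1, was called lower in HA after LPS (-2.18, limma adjusted p = 0.00478), and MAF, a transcription factor 1605.7 kb from VAT1L, was called higher in unstimulated KO (1.68, limma adjusted p = 0.0015). SEMA3A lost its call in 8 of 17 alternatives and MAF in 0 of 18. The nearest neighbours of the genes with the clearest split were not called. These were NXF3 and the transcript Z68871.1 beside BEX1, and NUDT7 and WWOX beside VAT1L. The others were NMNAT3 and SLC25A36 beside CLSTN2, and BOLA1 and SF3B4 beside SV2A. BEX3 and TCEAL9, called lower in KO and HA and on the X chromosome like BEX1, were not among the neighbours examined. Their distance from BEX1 was not measured, so a longer stretch around BEX1 was not examined.

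Over the 32 libraries the 10 genes fell by level into a block of 6, BEX1, SV2A, EPHB1, AQP1, SLITRK5 and VAT1L, and an opposed pair, NUDT10 and CLSTN2, with MACROD2 and CACNA2D1 in neither, and within groups their correlations lay around 0. The Pearson correlation of log2(normalized count + 1) over 45 pairs had a median of 0.256 and ran from -0.915, for BEX1 and CLSTN2, to 0.889, for BEX1 and VAT1L, with 16 pairs above 0.5. After the mean of each of the 8 groups was taken off, the median was -0.026, the range -0.531 to 0.484, and 0 pairs were above 0.5. Without SA LPS replicate 1 that median was -0.024 and 1 pair was above 0.5. The libraries share lines and treatments, so the first set of values repeats the split between lines for which the genes were picked, and at these low counts a weak correlation within groups is not informative.

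**Figure D5:**
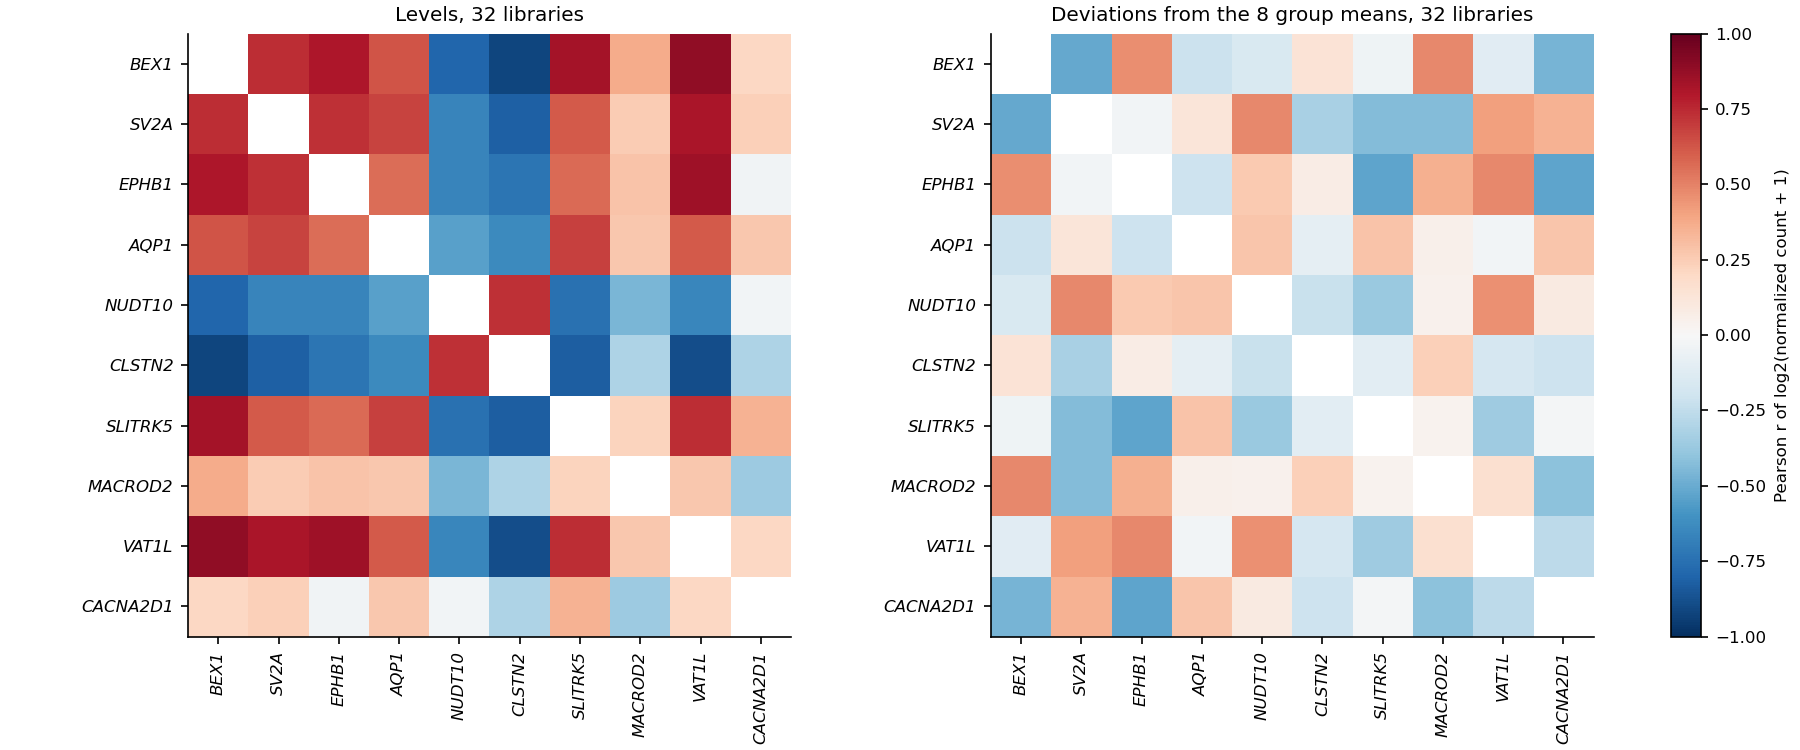
Pearson correlation (colour, from -1 in blue to 1 in red) between each pair of the 10 genes over 32 libraries, for log2(normalized count + 1) on the left and for its deviation from the group mean on the right. The block of 6 genes on the left and the pair NUDT10 and CLSTN2 opposed to it, with MACROD2 and CACNA2D1 pale against both, are not seen on the right, where values lie between -0.531 and 0.484.

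Genes outside the set with the most similar pattern were found by the same correlation over the 32 libraries, which again mostly reflects the lines. BEX1 was most like LPL (r = 0.955) and CCT5 (r = 0.949), and VAT1L was most like MSI2 (r = 0.942) and ALOX5AP (r = 0.939). LPL, lipoprotein lipase, had 235 counts in unstimulated WT, 85.5 in KO, 68.01 in HA and 224 in SA. SV2A was most like GAS5 (r = 0.940) and PHGDH (r = 0.912), EPHB1 like MSI2 (r = 0.881) and PPFIBP1 (r = 0.865), SLITRK5 like TSKU (r = 0.883) and BASP1 (r = 0.874), and AQP1 like MRRF (r = 0.811) and AC027031.2 (r = 0.754). In the opposite direction, CLSTN2 was most like S100A12 (r = 0.907) and SMAD3 (r = 0.904), and NUDT10 like HLA-DRB5 (r = 0.890) and HLA-DRA (r = 0.866). MACROD2 and CACNA2D1, the genes outside the main split, had weaker matches, EFNA5 (r = 0.572) and LMAN1 (r = 0.554) for MACROD2 and PCNX1 (r = 0.607) and AC109826.1 (r = 0.598) for CACNA2D1.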

How the data were processed

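RNA was sequenced from 32 THP-1 libraries with the QuantSeq 3′ kit. The authors trimmed reads with Bbduk, aligned them to GRCh38 with STAR, counted them per gene with HTSeq-count and deposited normalized counts from DESeq2; versions, annotation release and the strand setting are not given in the sources used here. The deposited values were reads divided by a size factor set within each line, so whole reads were recovered (100.000% of values within 0.05 of a whole read) and rescaled with median-of-ratios factors shared by all libraries, which differ from the deposited factors by up to 14.32%. Groups follow the sample labels. The 12406 genes with a mean of 10 or more were fitted with limma 3.58.1 (R 4.3.3) on log2(normalized count + 1), with 1 mean per group, and Benjamini-Hochberg adjusted p-values were read at a limit of 0.01. The fit was tested on simulated data with the same spread setting for all genes and changes in WT after LPS alone. That test does not show how the fit performs for genes near 0 in some lines.

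The 10 genes, the lists and the rule for named genes were chosen with earlier results of these data known. The rule named the 10 genes, ACLY, their closest paralogs, per other list at most 3 called genes or else the 2 most abundant, the 2 most alike genes, and called or nearest neighbours. CD33, CEBPA, DCN, FCER1G, ITGAM, some markers at 0, OLIG1, OLIG2 and SLC1A3 were named after their values were seen. Replicate numbers paired the libraries for LPS in WT (correlation of deviations 0.263 to 0.68) and in KO (0.124 to 0.675), and for KO and WT without LPS (0.334 to 0.682) and with LPS (0.179 to 0.723), but not in the HA and SA comparisons, as found in the data. Gene positions are from GENCODE 44, and transcript ends were compared with BLAST 2.17.0. Alternatives were another scale, filter, pseudocount, library weights, a replicate block, the compared groups alone and each library left out. Values of some marker genes are not reported here.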

Additional observations from a re-analysis of the deposited data

Results flagged for a closer look

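In 80 sets of 4 libraries, 1 for each gene and group, 7 held a library flagged by Dixon's criterion. Its gap to the nearest of the others was large for the range of the set. Chance gives this in about 1 set in 20 for normally distributed values. Low counts need not be so distributed, so the 7 cannot be set against that rate. AQP1 in KO after LPS was 10.18 normalized counts in replicate 4, with the rest of the group at 1.19 or less. NUDT10 in unstimulated KO was 16.22 in replicate 3, the lowest of its group. CLSTN2 in unstimulated HA was 102.3 in replicate 4, again the lowest. SLITRK5 in SA after LPS was 65.99 in replicate 1, the library that stood apart over all genes. MACROD2 was 56.28 in replicate 3 of WT after LPS and 16.61 in replicate 1 of KO after LPS, each the highest of its group. VAT1L in WT after LPS was 25.79 in replicate 3, the lowest of its group.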

How the results depend on the processing

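The count of 0 genes of the set called for an LPS response, or for a response that differed from WT, was the same in every alternative run, although a filter at 50 left fewer of them tested. Without each library in turn those counts ran from 0 to 0, and the counts of genes that did not overlap WT ran from 8 to 9 for KO and for HA without LPS, 10 to 10 and 9 to 9 with LPS, 1 to 2 for SA without LPS (2 without SA replicate 2 or WT replicate 3, when 6.24% and 15.6% of all genes did not overlap) and 2 to 5 for SA with LPS (5 without SA LPS replicate 1, 6.86% of all genes). Over all genes the share without a library ran up to 21% for KO and 39.1% for HA without LPS and to 24.6% and 29.6% with LPS. The related genes called moved more. For KO without LPS, 4 became 1 with the compared groups alone, 14 with library weights and 10 with the replicate block, and ran from 1 to 4 with a library left out (1 without KO replicate 3 or WT replicate 4, 2 without WT replicate 1). For HA without LPS, 2 became 1, 14 and 0, and ran from 1 to 2 (1 without HA replicate 1 or 2 or WT replicate 1, 2 or 4). For KO with LPS, 3 became 1, 11 and 11, and ran from 0 to 3 (0 without KO LPS replicate 2, 1 without KO LPS replicate 1 or WT LPS replicate 1, 2 or 4). For HA with LPS, 3 became 1, 8 and 0, was 0 on the deposited scale and 0 with no filter, and ran from 0 to 2 (0 without HA LPS replicate 1, 2 or 3 or WT LPS replicate 1, 2 or 4). The 3 neighbouring genes called became 11 with library weights and ran from 2 to 3. The share of all genes called was not computed for these alternatives, so the counts of related and neighbouring genes have none beside them. Of the differences between lines, 1019 values stayed within the spread and 13 moved, and of the calls of single related and neighbouring genes 213 were kept and 108 lost, with no change of direction. The causes were not tested. Total-read and upper-quartile scales were added after seeing the data. Count-based tests on the recovered reads and a TMM scale were not run. Most of these genes had under 100 counts per library, which limits what LPS differences could be detected.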
